A study of Homo sapiens with 2 samples.

Results

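EPCAM and 8 other markers of liver progenitor cells were followed at the mRNA level in Hep3B, a human hepatocellular carcinoma cell line, after inhibition of miR-19b. The members were PROM1, CD24, CD44, THY1, KRT19, KRT7, SOX9, SALL4 and EPCAM itself. They were found by gene symbol among the probes of the array, and all 9 had a probe. They were read by 10 of the 29187 probes of the array, with 2 probes for SALL4 and 1 for each of the others. The series holds 1 array of cells that received an inhibitor of miR-19b (anti-miR-19b) and 1 array of cells that received a control. Both cultures were of the same line, received 90 pmol of inhibitor or control per well with a lipid reagent, and were collected 24 h later. The inhibitor was delivered transiently, so that transfected and untransfected cells of a well were measured together. With 1 deposited array per condition no replicate error could be estimated, no test was made here, and each value describes these 2 arrays. How many hybridizations lie behind each deposited value was not stated in the sources. The study's own list of lowered genes gives a p-value for each gene, PROM1 included, from a test that the sources do not name. Its log2 ratio for PROM1 is slightly lower than the ratio of the intensities printed beside it, which are those used here. Whether repeat measurements lie behind those p-values and ratios was not stated. EPCAM and PROM1 were selected on their intensities here, as candidates that the study picked for differing between these arrays, and the other members were chosen with earlier results of the arrays known. Their ratios are therefore given as a description.

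EPCAM is an epithelial adhesion molecule that is made by hepatoblasts and by the bipotent progenitor cells of the liver, is lost from mature hepatocytes, and returns in a subset of liver cancers. PROM1 (CD133), CD24, CD44 and THY1 (CD90) are surface molecules used to sort tumor-initiating cells from such cancers. KRT7 and KRT19 are keratins of bile duct cells, SOX9 is a transcription factor of the ductal lineage, and SALL4 is a zinc finger factor of embryonic stem cells and fetal liver. A microRNA guides a silencing complex to mRNAs through its seed, the bases near its 5′ end, and an inhibitor that pairs with the microRNA blocks this step.

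The sources used here do not give the sequence of the inhibitor. The mature microRNA it was directed at is shown because its seed defines the family that can act on the same sites. Sequences are from RefSeq (GRCh38.p14), written 5′ to 3′, with the seed (bases 2 to 8) in capitals. The same mature miR-19b-3p comes from 2 loci, at chr13:91351245-91351267 (plus strand) and at chrX:134169683-134169705 (minus strand), and miR-19a-3p comes from chr13:91350939-91350961 (plus strand).
hsa-miR-19b-3p: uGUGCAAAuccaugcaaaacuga
hsa-miR-19a-3p: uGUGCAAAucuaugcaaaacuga
These 2 mature microRNAs were the ones in the table with this seed. Counted from the 5′ end of miR-19b-3p, they differ by C11U, which lies outside the seed. The array reads mRNA, so that neither the level of mature miR-19b nor the degree of its inhibition was measured.

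The deposited values are normalized intensities on a linear scale. The median intensity was 28.1 with anti-miR-19b and 26.0 with the control. Readings at or below 0, as background subtraction can give, were found at 1650 probes with anti-miR-19b and at 1898 with the control. The remaining 26186 probes, above 0 on both arrays, were compared as the log2 ratio of anti-miR-19b over control. A probe was called bright at a mean level of 41.4 or above, the median of the compared probes. It was called near the floor where either array read under 5.06, a limit that held 95% of the values below 0 in size, and dim in between. Of the 10 marker probes, 5 were bright, 2 were dim, 2 were near the floor and 1 was at or below 0 on an array. Intensities of different probes are not on a common scale, so that a level is compared only with the level of the same probe on the other array.

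**Figure D1:**
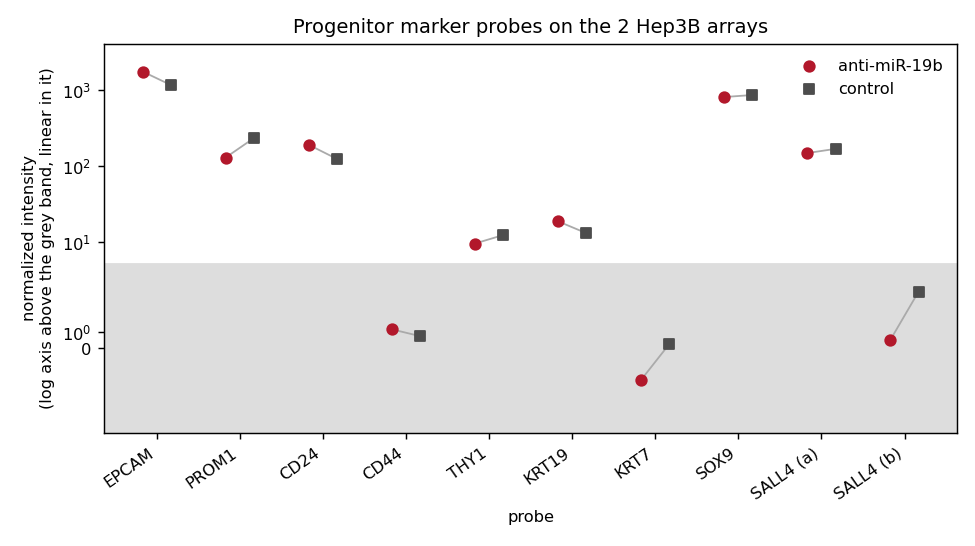
Normalized intensity of the 10 marker probes on the anti-miR-19b array (red circles) and the control array (grey squares), 1 array each, on an axis that is logarithmic above the grey band and linear within it. The grey band marks intensities under 5.06, SALL4 (a) and (b) are its bright and near-floor probes, and both points of CD44, KRT7 and SALL4 (b) lie in the band.

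EPCAM had an intensity of 1736 with anti-miR-19b and 1154 with the control. It was higher with anti-miR-19b by 582 units of intensity, or 1.505 times, with a log2 ratio of 0.59. Each probe was read against the 500 probes nearest in mean level, with their middle spread (percentile 16 to 84, divided by 2) as a yardstick. That spread is between different probes on the same pair of arrays, so that it is not a replicate error. A percentile among these neighbours describes a rank and measures no significance. Around EPCAM that spread was 0.23 about a median of 0.03, and 2 of the 500 neighbours had a higher ratio (percentile 99.6). This value lay just over the 1.5-fold threshold of the study, a log2 ratio of 0.58. After every ratio was centred on the median over all probes, EPCAM had 0.56. It had 0.57 with quantile normalization, with the trend on level removed and with 50 added to the intensities, each just under the threshold. A change in the number of EPCAM-positive cells and a change of EPCAM mRNA per cell cannot be told apart in these pooled cells.

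PROM1, a pentaspan protein of membrane protrusions, had an intensity of 128 with anti-miR-19b and 231 with the control. It was 0.554 times as high with anti-miR-19b, a log2 ratio of -0.85. None of its 500 neighbours had a lower ratio (percentile 0), and their spread was 0.26. PROM1 and EPCAM, both used as markers of tumor-initiating liver cells, thus lay on opposite sides of 0. The PROM1 ratio was past 1.5-fold under each treatment of the intensities that was tried, from -0.66 with 50 added to -0.90 with quantile normalization.

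CD24, a small mucin-like protein anchored in the membrane by a lipid, had an intensity of 188 with anti-miR-19b and 123 with the control. It was 1.535 times as high with anti-miR-19b (log2 ratio 0.62, percentile 98.0 of its neighbours, spread 0.24). It lay near the threshold like EPCAM, with 0.59 after centring on the median and 0.58, 0.57 and 0.46 with the trend on level removed, quantile normalization and the offset of 50. CD24 has near-identical processed copies elsewhere in the genome, and whether its probe reads them was not tested.

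CD44, a receptor for hyaluronan, was read at 1.15 with anti-miR-19b and 0.738 with the control, both near the floor. Its log2 ratio of 0.64 stands for a difference of 0.410 units of intensity. The neighbours at that level had a spread of 3.09, and CD44 lay at percentile 50.4 among them. Of all 5161 probes near the floor, 37.4% were over 1.5-fold higher and 38.8% lower. At such levels the deposited values form coarse steps: exactly the value of CD44 was held by 20 other probes with anti-miR-19b and by 30 with the control. THY1, a lipid-anchored glycoprotein that also marks fibroblasts, had a dim probe with 9.43 with anti-miR-19b and 12.2 with the control (log2 ratio -0.37, percentile 26.6, spread 0.66). For CD44 and THY1 the difference between the arrays was smaller than the spread of probes of like level.

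KRT19 had a dim probe as well, with an intensity of 18.5 with anti-miR-19b and 12.9 with the control. Its log2 ratio of 0.52, or 1.43 times, was just short of 1.5-fold, and 92 of the 500 neighbours were higher (percentile 81.6, spread 0.51). Of all 7934 dim probes, 17.1% were over 1.5-fold higher and 12.5% lower. KRT7 read -1.88 with anti-miR-19b and 0.269 with the control, so that no ratio was formed and its mRNA was not measured above background at this probe. Among the other simple keratins, KRT18, which hepatocytes share with duct cells, had 1942 with anti-miR-19b and 1477 with the control (log2 ratio 0.39, percentile 93.6). KRT23 had 1835 with anti-miR-19b and 1483 with the control (0.31, percentile 86.0). The bright probe of KRT20 went the other way, with 97.1 with anti-miR-19b and 116 with the control (-0.26, percentile 9.2). KRT8, the usual partner of KRT18, had a dim probe with 15.5 with anti-miR-19b and 21.1 with the control (-0.44). Of the 4 keratins listed beside KRT7 and KRT19, 0 were over 1.5-fold either way. Of all genes 12.4% were over 1.5-fold higher and 10.8% lower, so nothing is read from the 0.

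SOX9 had a bright probe with 800 with anti-miR-19b and 852 with the control. Its log2 ratio of -0.09 was in the middle of its neighbours (percentile 38.8, spread 0.23). The bright probe of SALL4 had 147 with anti-miR-19b and 166 with the control (log2 ratio -0.18, percentile 17.4, spread 0.24). The other SALL4 probe was near the floor, at 0.515 with anti-miR-19b and 3.41 with the control. Its log2 ratio of -2.73 was the lowest of the members, but its neighbours had a spread of 2.85 and 72 of 500 were lower still (percentile 14.4). The gene mean of SALL4, -1.46, therefore rests on that probe. Both lineage factors were within 1.5-fold at their bright probes.

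**Figure D2:**
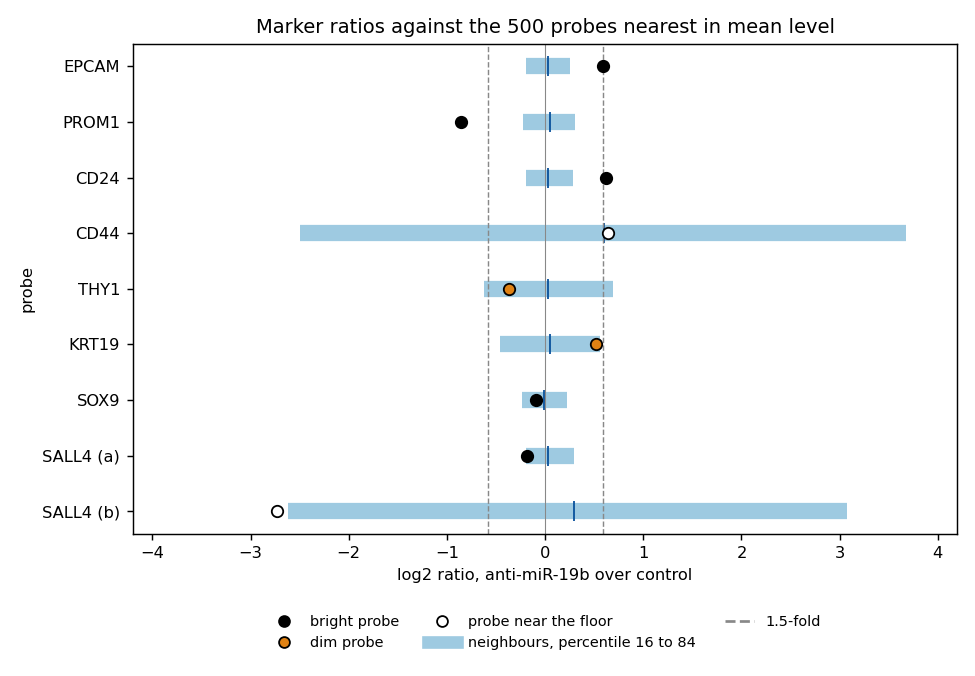
Log2 ratio of anti-miR-19b over control for the 9 marker probes with a ratio (points, filled by level), against the range from percentile 16 to 84 of the 500 probes nearest in mean level (blue bars, with the median as a tick) and the 1.5-fold lines (dashed). EPCAM, CD24 and PROM1 lie outside narrow bars, at 0.59, 0.62 and -0.85, while CD44 at 0.64 lies inside a bar with a spread of 3.09.

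Of the 9 marker probes with a ratio, 3 were over 1.5-fold higher with anti-miR-19b, 2 were over 1.5-fold lower and 4 were within it. Over all 26186 compared probes, 13.8% were over 1.5-fold higher and 12.0% lower. Just past the threshold were EPCAM, CD24 and CD44, at 1.505, 1.535 and 1.555 times, and just short of it was KRT19, at 1.43 times. Among the 5 bright marker probes, 2 were over 1.5-fold higher (EPCAM and CD24), 1 was lower (PROM1) and 2 were within (SOX9 and SALL4). Of all 13091 bright probes that were not near the floor, 2.41% were over 1.5-fold higher and 1.05% lower. The study picked EPCAM and PROM1 as candidates past this threshold on these arrays, so nothing is read from that excess. Its lists are far shorter than the probes counted here, and whether it also set a p-value limit was not stated. The median log2 ratio was -0.09 over the bright marker probes and 0.03 over all bright probes, and the markers shared no direction.

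**Figure D3:**
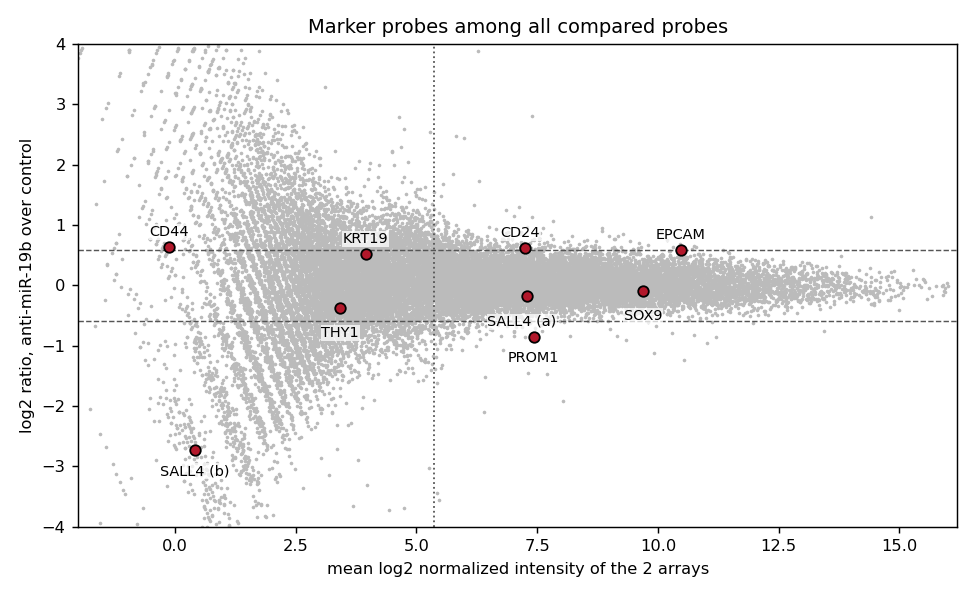
Log2 ratio of anti-miR-19b over control against the mean log2 intensity of the 2 arrays, for all compared probes (grey) and the 9 marker probes with a ratio (red), with 1.5-fold (dashed) and the lowest level of bright probes (dotted). The grey cloud widens toward low levels, where CD44, THY1, KRT19 and SALL4 (b) lie, and 255 of the 26186 probes fall outside the axes.

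Genes that act with the markers were described from 6 lists, with 76 genes besides the markers themselves, of which 68 had a ratio. Taking the mean over the probes of a gene, 5 of the 68 were over 1.5-fold higher with anti-miR-19b and 5 were lower, against 12.4% and 10.8% of all 17438 genes. All 10 were called at dim or near-floor probes. Higher were SPINT1, ESRP1, LIN28A, NCAM1 and CD47, and lower were SALL3, POU5F1, KLF4, CACNA2D1 and PROM2. Of the 52 bright probes of these lists 0 were over 1.5-fold either way, against 2.41% higher and 1.05% lower of all bright probes. With shares that small, nothing is read from the 0. The 52 probes ranged from -0.54 to 0.47 with a median of -0.02.

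EPCAM is clipped by the sheddase ADAM17 and then by the gamma-secretase complex, which frees an intracellular part that joins FHL2, beta-catenin and LEF1. It also sits in the membrane with claudin-7 and tetraspanins. The list for EPCAM also held ST14, SPINT1 and SPINT2, which belong to none of these groups. Of its 16 genes 14 were measured, with a median of 0.17 against 0.03 for all genes. Over 1.5-fold higher was 1 (SPINT1, near the floor), 0 were lower and 13 were within. Of all genes 12.4% were over 1.5-fold higher and 10.8% lower, so nothing is read from these counts. Over the 12 bright probes of the list alone the median was -0.01, against 0.03 for all bright probes. ADAM17 had 1358 with anti-miR-19b and 1284 with the control (log2 ratio 0.08). The gamma-secretase subunit APH1A had 6615 with anti-miR-19b and 7476 with the control (-0.18), and PSEN2, a catalytic subunit, had 186 with anti-miR-19b and 140.0 with the control (0.41). CTNNB1, which encodes beta-catenin, had 2184 with anti-miR-19b and 1717 with the control (0.35, percentile 91.2). LEF1 had 652 with anti-miR-19b and 860.0 with the control (-0.40, percentile 2.8), on the opposite side to CTNNB1. TSPAN8, a tetraspanin, had a log2 ratio of 0.17. The claudin CLDN7 had -0.38 at its bright probe (percentile 14.6, spread 0.45). Its dim probe had 0.77 (percentile 87.4, spread 0.53), so that the 2 probes differed in sign, at levels where the spread is wide.

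For CD44, 11 genes of hyaluronan synthesis, cytoskeletal linkage, cleavage and splicing were listed and 9 measured. Over 1.5-fold higher was 1 gene (ESRP1, a splicing regulator of CD44, at dim and near-floor probes), 0 were lower, and the median was 0.04. Of all genes 12.4% were over 1.5-fold higher and 10.8% lower, so nothing is read from these counts. RDX, which encodes radixin, a linker of CD44 to actin, had 2499 with anti-miR-19b and 3091 with the control (log2 ratio -0.31, percentile 6.0). MMP14, a protease that cleaves CD44, had 1382 with anti-miR-19b and 1342 with the control (0.04). The bright probe of ESRP2 had 0.15.

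The Notch and Hippo pathways feed into SOX9 and the biliary fate. All 9 measured genes of this list were within 1.5-fold, with a median of -0.02. Of all genes 12.4% were over 1.5-fold higher and 10.8% lower, shares that also apply to the SALL4 list below. Nothing is read from the counts of either list. JAG1, a Notch ligand, had 1299 with anti-miR-19b and 1326 with the control (log2 ratio -0.03), and the Hippo effector YAP1 had 0.17. Both probes of ONECUT2, a factor of early liver and bile duct development, were near each other, at -0.20 and -0.25. Of 18 listed paralogs of SALL4, pluripotency factors and subunits of NuRD, the histone deacetylase complex that SALL4 recruits, 16 were measured. In that list 1 gene was over 1.5-fold higher and 3 were lower, at dim or near-floor probes, with a median of -0.02. The deacetylase HDAC1 had 2146 with anti-miR-19b and 2522 with the control (-0.23), and MTA1 had 1721 with anti-miR-19b and 1732 with the control (-0.01). LIN28B, an RNA-binding protein of fetal liver, had 406 with anti-miR-19b and 332 with the control at its bright probe (0.29).

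Other markers used for liver progenitor or cancer stem cells gave no common direction. All 16 had a ratio, with 2 over 1.5-fold higher, 2 lower and a median of 0.04. Of all genes 12.4% were over 1.5-fold higher and 10.8% lower, so nothing is read from these counts. ALDH1A1, an aldehyde dehydrogenase, had 19936 with anti-miR-19b and 20083 with the control (log2 ratio -0.01). ICAM1, an adhesion molecule, had 1546 with anti-miR-19b and 2251 with the control (-0.54, percentile 1.2). ANPEP (CD13) had 0.09 and DLK1, a marker of hepatoblasts, 0.10. Both probes of the drug exporter ABCG2 were lower with anti-miR-19b, at -0.16 and -0.26. PROM2, the paralog of PROM1, had a dim probe with 10.2 with anti-miR-19b and 20.5 with the control (-1.01, percentile 3.0), and its second probe read below 0 with anti-miR-19b.

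**Figure D4:**
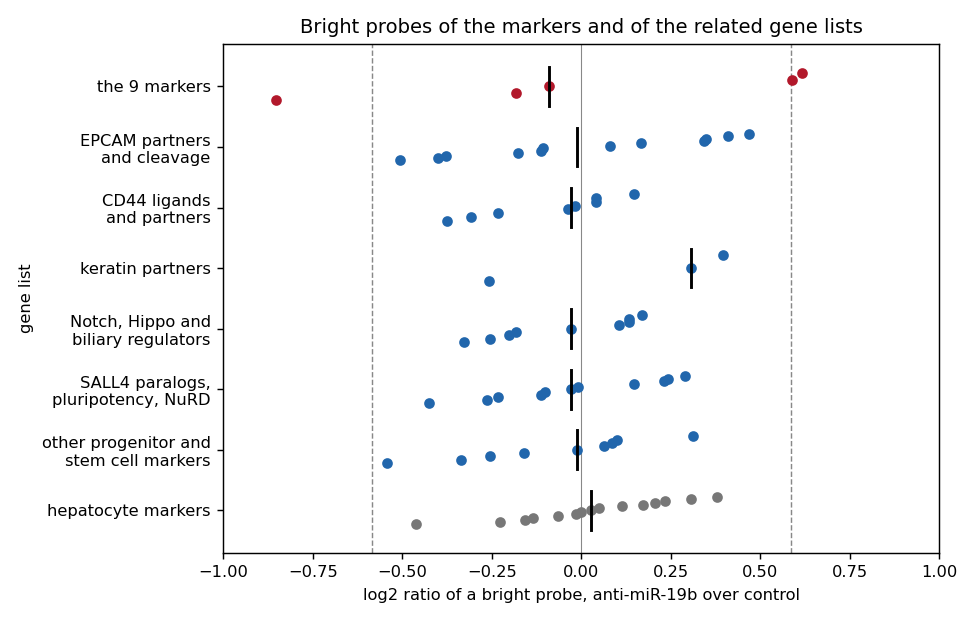
Log2 ratio of anti-miR-19b over control for each bright probe of the 9 markers (red), of the 6 related lists (blue) and of the hepatocyte markers (grey), with the median of each list (black tick) and 1.5-fold (dashed). PROM1, EPCAM and CD24 are the points past the dashed lines, and the 52 bright probes of the related lists lie between -0.54 and 0.47.

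The identity of the cells was checked by marker lists. All 12 measured hepatocyte markers had a bright probe and were within 1.5-fold. Of all bright probes 2.41% were over 1.5-fold higher and 1.05% lower, so nothing is read from that count. ALB (albumin) had 15550 with anti-miR-19b and 14382 with the control. GPC3, an oncofetal proteoglycan, had 30459 with anti-miR-19b and 33954 with the control. AFP, the fetal albumin often made by EPCAM-positive liver cancers, had 1783 with anti-miR-19b and 1371 with the control (log2 ratio 0.38, percentile 93.4). Markers of other cells were mostly dim or near the floor. Bright probes were found in 2 of 5 measured cholangiocyte markers (SLC4A2 and SPP1), 2 of 8 stellate cell and fibroblast markers (LUM and COL1A1), 2 of 4 leukocyte markers (CD68 and CD14) and 1 of 5 endothelial markers (CDH5). The leukocyte marker PTPRC read at most 7.46 with anti-miR-19b and 6.70 with the control. Of the 5 cholangiocyte markers 1 was over 1.5-fold higher with anti-miR-19b (CFTR, near the floor) and 4 were within, with SPP1 at 0.04 and SLC4A2 at -0.40 on the log2 scale. Of the 8 stellate cell and fibroblast markers 1 was higher, 2 were lower and 5 were within, and their bright probes had -0.12 (COL1A1) and 0.14 (LUM). Of all genes 12.4% were over 1.5-fold higher and 10.8% lower, and nothing is read from the counts of these lists. Both cultures were of the Hep3B line, and what the bright probes of these other markers read was not tested.

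The probes most like EPCAM were those with the smallest distance in the 2 log2 levels. They were ARPC2 (distance 0.07, log2 ratio 0.69), NIT2 (0.08 and 0.50), INSIG2 (0.10 and 0.45), TMEM14C (0.10 and 0.46) and PICALM (0.11 and 0.48). Each of these genes had 1 other probe, with ratios of 0.21, 0.61, 0.05, -0.06 and 0.10 in that order, so that NIT2 alone kept a like ratio at its other probe. Most like PROM1 were ZNF611 (distance 0.19, log2 ratio -0.63), KIAA0513 (0.22 and -0.58), LGALS9C (0.24 and -0.85), ALDH4A1 (0.24 and -0.51) and ZNF653 (0.26 and -0.51). Among these, LGALS9C and ALDH4A1 had 1 other probe each, at 0.80 and 0.19. Other probes of any level were taken for both genes' lists. Ratios spread more widely at dim probes (0.55) and near the floor (1.69) than at bright ones (0.26). Likeness over 2 arrays is a weak measure, and it was used only to name probes with like values. In the 1628 genes with exactly 2 bright probes, the log2 ratios of the 2 probes differed by a median of 0.24, and by over 1.5-fold in 156 genes. EPCAM, PROM1 and CD24 each had 1 probe, so that this check could not be made for them.

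**Figure D5:**
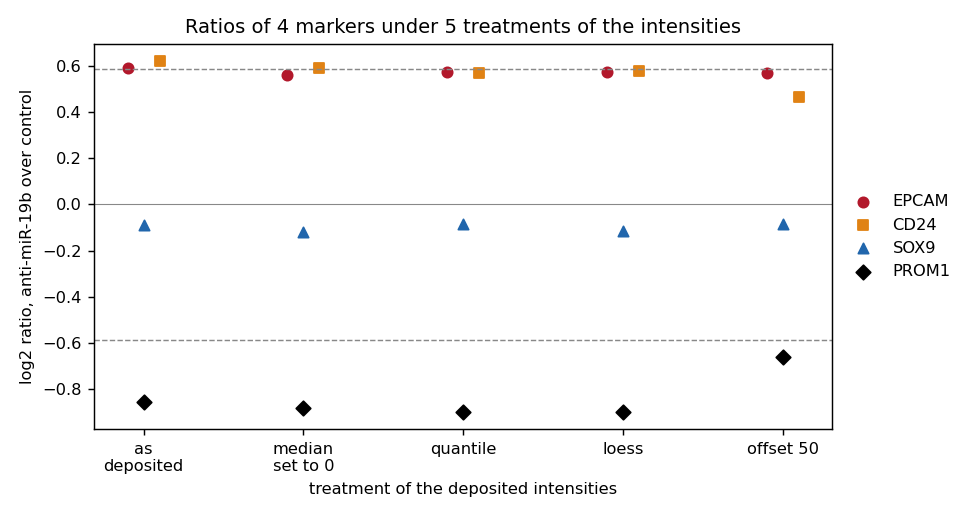
Log2 ratio of anti-miR-19b over control for EPCAM, CD24, SOX9 and PROM1 (points) under 5 treatments of the deposited intensities, with the 1.5-fold lines (dashed). PROM1 stays below the lower line, from -0.66 to -0.90, while EPCAM is over the upper line as deposited (0.59) and just under it otherwise (0.56 to 0.57).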

How the data were processed

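RNA of Hep3B cells was labeled by the authors with 1 dye (Cy5 in the labels, fluorescein in the methods), hybridized to Human OneArray, scanned and quantified. The authors deposited a normalized intensity per probe. The sources used here do not give the normalization. The series design text names a transfection with miR-19b. The title and sample labels name its inhibitor, and these were followed. The platform annotation gave 1 gene symbol for 25053 of 29187 probes, several for 0 and none for 4134. Symbols were updated by gene identifier for 24981 probes (RefSeq, GRCh38.p14). Ratios were log2 intensity with anti-miR-19b minus control, with no filter but values above 0, and a gene was the mean of its probes. The members and lists were chosen with earlier results of these data known. Named list genes were the 2 of highest mean level per list, and others were named after their values were seen. Steps were tested on simulated data. The loess trend used statsmodels 0.14.6 and quantiles scipy 1.17.1, within Python 3.11.15 (pandas 2.3.3, numpy 2.4.6), and figures matplotlib 3.10.9. The number of arrays limits the precision. Alternatives are given in the closing section.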

Additional observations from a re-analysis of the deposited data

How the results depend on the processing

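No paired analysis was possible because anti-miR-19b and control were each deposited as 1 array. Member probes over 1.5-fold higher numbered 3 as deposited, and 0 with quantile normalization, removal of the loess trend (fraction 0.3), an offset of 50 or a 2-fold threshold. Those lower numbered 2, and 1 over bright probes alone, with the offset or at 2-fold. In the 6 related lists, the 5 genes higher were 0 over bright probes alone or with the offset, 3 at the brightest probe of each gene and 3 at 2-fold. The 5 lower were 0 over bright probes alone or with the offset. By construction these settings take fewer probes, raise the threshold or shrink the ratios of dim probes. For quantile normalization and the loess trend, EPCAM (0.57 and 0.57), CD24 (0.57 and 0.58) and CD44 (0.58 and 0.52) were under the threshold. Of 90 alternative values, 77 stayed within limits set for each kind of value, and 13, all of them counts, moved past them. For a log2 ratio the limit was the spread of probes of like level, which leaves wide room where that spread is large. With the offset of 50, CD44 went from 0.64 to 0.01 inside a limit of 3.09. SALL4 went from -1.46 to -0.11 inside a limit of 1.55. Crossing 1.5-fold, as EPCAM and CD24 did in some settings, was not counted as a move of a ratio. The tally is therefore no measure of stability. A change of sign was looked for only in the ratios of members past 1.5-fold as deposited, and 0 were found. The log2 ratios of EPCAM (0.56 to 0.59) and PROM1 (-0.90 to -0.66) moved by less than the spread of probes of like level. With 200 or 1000 neighbours, EPCAM lay at percentile 99.3 to 99.5. With a fixed floor of 10, 4 of the 10 probes read under the floor on an array, against 3 (KRT7 included) with the floor of 5.06.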

Other observations

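Among the bright probes of the related lists, none past 1.5-fold, 4 of 52 lay below percentile 5 of their 500 neighbours and 0 lay above percentile 95. By construction each such tail holds about 5% of all probes, so nothing is read from these counts. The 4 probes below percentile 5 were named after their values were seen. Besides ICAM1 and LEF1, given above, they were CD9, a tetraspanin that binds EPCAM, with an intensity of 75.8 with anti-miR-19b and 108 with the control (log2 ratio -0.51, percentile 2.4), and a probe of EZR, which encodes ezrin, with 2222 with anti-miR-19b and 2882 with the control (-0.38, percentile 2.8). The other bright probe of EZR had 230 with anti-miR-19b and 236 with the control (-0.04). RDX, the close relative of EZR, lay at percentile 6.0, and MSN (moesin), the third gene of that family, had -0.02 at its bright probe (percentile 42) and 0.96 at its dim probe (percentile 93.2). AHSG (fetuin-A), a secreted hepatocyte protein, had 2811 with anti-miR-19b and 3870.0 with the control (-0.46, percentile 1.0), while AFP had 0.38.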
